A study of Mus musculus with 8 samples.

Results

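A set of 9 long noncoding RNAs known in the brain was followed in the striatum of each mouse, namely Meg3, Rian, Mirg, Malat1, Neat1, Miat, Snhg11, Snhg14 and Pantr1. They were taken by gene symbol, and all 9 were found among the 55032 genes listed. Each of the 9 passed the expression filter of edgeR, as did 18294 genes in all. The mice were females of strain C57BL/6 at P60 (postnatal day 60), 4 WT and 4 16p11.2+/-, and the striatal total RNA of every mouse went into a library of its own. The 16p11.2+/- mice, named DF in the labels, carry a germline heterozygous deletion on chromosome 7, and WT mice carry none. The labels name no treatment. The comparison of the genotypes asked which RNAs differ in the striatum of this mouse model of autism spectrum disorder.

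Long noncoding RNAs are transcripts that act without being translated, and many of them stay in the nucleus. Meg3, Rian and Mirg are transcribed in the same direction from the maternal copy of the imprinted Dlk1-Dio3 domain, where Rian is a host of C/D box snoRNAs and Mirg a host of a microRNA cluster. Snhg14 is the host of the Snord115 and Snord116 snoRNAs, is transcribed from the paternal copy of its own imprinted domain, and runs in its distal part antisense to the ubiquitin ligase gene Ube3a. Malat1 is enriched in nuclear speckles, where splicing factors gather, and Neat1 is the scaffold of the nuclear bodies called paraspeckles. Miat (also named Gomafu) is a nuclear RNA of neurons that binds splicing factors, Snhg11 is a snoRNA host of neurons, and Pantr1 lies beside the gene of the transcription factor Pou3f3.

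In GENCODE M21 (GRCm38) the 3 RNAs of the Dlk1-Dio3 domain lie in a row on the plus strand of chromosome 12, with Meg3 (ENSMUSG00000021268) from 109541001 to 109571726, Rian (ENSMUSG00000097451) from 109603940 to 109661716 and Mirg (ENSMUSG00000097391) from 109729764 to 109749460. Malat1 (ENSMUSG00000092341) lies on the minus strand of chromosome 19 from 5795690 to 5802672. Neat1 (ENSMUSG00000092274) is its neighbour on the same strand, from 5824708 to 5845478, and each of these is annotated as 1 block of exon sequence. Miat (ENSMUSG00000097767) lies on chromosome 5 from 112213228 to 112229395, on the minus strand. Snhg11 (ENSMUSG00000044349) lies on chromosome 2 from 158375638 to 158386145, on the plus strand. GENCODE M21 types Snhg11 as protein coding, whereas RefSeq types it as a long noncoding RNA. Snhg14 (ENSMUSG00000100826) lies on the minus strand of chromosome 7 from 59307924 to 59975759, and Pantr1 (ENSMUSG00000060424) on the minus strand of chromosome 1 from 42590782 to 42694842. Within the span of Snhg14 208 snoRNA genes are annotated, against 13 within Rian and 2 within Snhg11. RefSeq gives Snhg14 a longer span, from 59272737 to 60450177, so that the counted gene covers part of it.

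The small RNAs cut from the Dlk1-Dio3 transcripts are shown because they are the products by which Meg3, Rian and Mirg differ. The RefSeq microRNA table (GRCm38.p6) holds 35 mature names on 18 hairpins within the GENCODE M21 spans of these genes, 3 names in Meg3, 6 in Rian and 26 in Mirg. The RefSeq span of Mirg starts later, at 109734981, so that miR-382-5p, miR-134-5p and miR-485-3p lie within the GENCODE span alone. These names have 34 different seeds (bases 2 to 8, which pair with target RNAs), and 1 seed is shared by 2 of them. In the sequences that follow, written 5′ to 3′, capitals mark the seed. The first comes from Meg3, the second from Rian and the others from Mirg, and miR-453 and miR-496a-5p are the pair with a common seed. Mature microRNAs were not measured in these libraries.
miR-770-5p: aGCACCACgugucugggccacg
miR-370-3p: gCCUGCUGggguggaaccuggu
miR-382-5p: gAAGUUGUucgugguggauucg
miR-134-5p: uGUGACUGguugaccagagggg
miR-485-3p: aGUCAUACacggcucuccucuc
miR-154-3p: aAUCAUACacgguugaccuauu
miR-410-3p: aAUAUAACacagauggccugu
miR-453: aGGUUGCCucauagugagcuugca
miR-496a-5p: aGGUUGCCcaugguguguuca

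The promoter of Meg3 is shown because this RNA had the highest level of the 9. RefSeq lists 2 windows for Meg3, and the one of the first start is chr12:109540746-109541045 on the plus strand of GRCm38.p6, and holds 300 bases, from 250 before to 50 after the start of the transcript. A pair of motifs was searched on both strands and is in capitals, namely TGACGTCA, the full cAMP response element, and TATATAA, which some core promoters carry. TGACGTCA reads the same on both strands and begins 57 bases before the start. TATATAA begins 27 bases before the start and overlaps its match on the other strand by all but its last base, so the capitals run over 1 base more. Of 32851 promoter windows of this length, 1.79% hold TGACGTCA and 3.24% hold TATATAA. The window has 13 CpG sites, against a median of 7 over all windows. The other Meg3 window, chr12:109545148-109545447, holds neither motif and has 1 CpG site. A match of letters is a description and does not show that a factor binds there.
Meg3 promoter: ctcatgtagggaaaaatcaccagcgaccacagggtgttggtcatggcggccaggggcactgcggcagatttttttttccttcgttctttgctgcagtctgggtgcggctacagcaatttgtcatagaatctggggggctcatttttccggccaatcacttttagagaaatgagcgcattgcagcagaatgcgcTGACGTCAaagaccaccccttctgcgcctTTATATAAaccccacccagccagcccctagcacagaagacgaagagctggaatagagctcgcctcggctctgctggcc

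The libraries were even in depth. The reads assigned to genes numbered 15125051 to 16387993 in WT mice and 15240680 to 16523429 in 16p11.2+/- mice. The genotype labels were examined on Mapk3, which lies in the deleted segment (chromosome 7 from 126759601 to 126765819), with an FPKM between 35.7 and 46.4 in WT mice and between 20.7 and 22.3 in 16p11.2+/- mice. Marker genes of cell types and regions were less even. The marker score of medium spiny neurons, the main neurons of the striatum (mean log2 CPM of 10 genes, each counted in every mouse), was between 7.67 and 8.40 in WT mice and 8.35, 6.48, 8.20 and 6.13 in the mice DF-1018, DF-1037, DF-1059 and DF-1062. The score of thalamus markers (7 genes, none at 0 in any mouse) was between 5.89 and 6.81 in the mice WT-1063, DF-1018, DF-1037 and DF-1062 and between 3.30 and 3.73 in the other mice. The oligodendrocyte score (10 genes) was between 8.44 and 8.81 in WT mice and between 7.86 and 8.43 in 16p11.2+/- mice, with DF-1062 the lowest. These ranges do not overlap, though WT-1041 (8.435) and DF-1037 (8.428) were close. In a fit with this score as a covariate, score and genotype can thus be told apart only in part. Choroid plexus markers, 4 of 6 of which were tested, scored between 1.90 and 8.41, with WT-1063 the highest, and Kcnj13 was at 0 in 2 mice. The cortical glutamatergic neuron score (7 genes) was between 2.87 and 5.66 in WT mice and between 2.67 and 6.09 in 16p11.2+/- mice. In bulk tissue fewer cells of a type and less RNA per cell cannot be told apart. Whether the RNAs are neuronal here cannot be read from these libraries.

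The 9 RNAs spanned a wide range of levels in WT striatum. FPKM, the reads of a gene per kilobase of its length scaled to the counted reads of the library, was highest for Meg3 at 412 ± 50.5 (SD, n = 4), followed by Malat1 at 406 ± 72.7 (SD, n = 4) and Snhg11 at 371 ± 34.7 (SD, n = 4). These took the places 30, 31 and 36 among all genes, and their ranges over the WT mice overlapped. Rian came next at 52.8 ± 4.06 (SD, n = 4), in place 619, and Miat at 25.3 ± 9.68 (SD, n = 4), in place 1693. Rian lay below the lowest Snhg11 value and above the highest Miat value in every WT mouse. Neat1 at 10.8 ± 3.88 (SD, n = 4) and Pantr1 at 7.93 ± 1.85 (SD, n = 4) overlapped each other. Snhg14 at 4.91 ± 0.181 (SD, n = 4) and Mirg at 4.27 ± 0.192 (SD, n = 4) were the lowest, in the places 8216 and 8907, and their WT ranges did not overlap. The name abundant thus held for the first 3, with percentiles of at least 99.9 among detected genes, more than for Mirg, which was at percentile 75.1. Among the 9680 rows typed as long noncoding RNA, which leave out Snhg11, Meg3 was in place 1, Malat1 in place 2, Rian in place 6 and Mirg in place 221. The length in these FPKM values is that of all annotated exons together, for example 18089 bases for Meg3 and 26093 bases for Snhg14, and not that of 1 transcript.

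**Figure D1:**
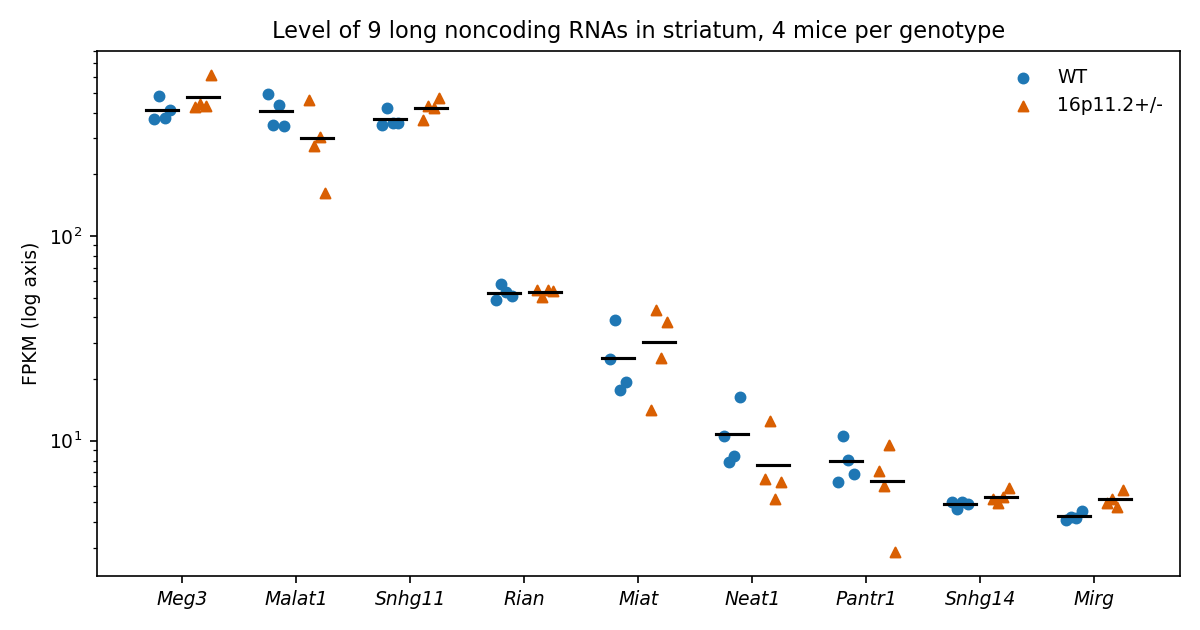
FPKM (log scale) of the 9 RNAs in each of the 4 WT and 4 16p11.2+/- mice, in order of the WT mean, with horizontal bars at the group means. Meg3, Malat1 and Snhg11 lie between 343 and 494 FPKM in WT mice, and Mirg is the RNA whose genotypes do not overlap.

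The 9 RNAs together took 1.51% ± 0.10 (SD, n = 4) of the counted reads in WT mice and 1.60% ± 0.133 (SD, n = 4) in 16p11.2+/- mice, and the difference did not pass a two-sided exact permutation test (p = 0.371). The share was highest in DF-1062, at 1.79%. Meg3 alone had between 102427 and 183564 reads per mouse, more than any other of the 9. Without Meg3 the difference between the genotypes was -0.030 percentage points (exact permutation p = 0.314), against 0.0914 with it. With all 9 RNAs it was 0.0256 without DF-1062 and 0.141 without WT-1041 (exact permutation p = 0.743 and 0.0571).

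By spread between mice of one genotype, the 9 RNAs fell on both sides of the typical gene. The within-genotype SD of log2 CPM (counts scaled to library size) had a median of 0.25 over all tested genes. Mirg (0.067), Snhg14 (0.069), Rian (0.087), Snhg11 (0.11) and Meg3 (0.18) lay below it. Malat1 (0.51), Neat1 (0.52), Pantr1 (0.59) and Miat (0.61) lay above it, at percentiles between 82.0 and 88.2 of tested genes. Mirg was steady at modest depth, with between 454 and 692 reads per mouse, whereas Malat1 varied 3.04-fold over the 8 mice with at least 18776 reads in each. Among the 9, the 4 imprinted members and Snhg11 were the steadier ones, and both nuclear body RNAs were among the more variable ones. Other genes of the imprinted domains were not all steady. Ndn lay between 16.9 and 48.4 FPKM in WT mice, and Snrpn between 126 and 143.

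**Figure D2:**
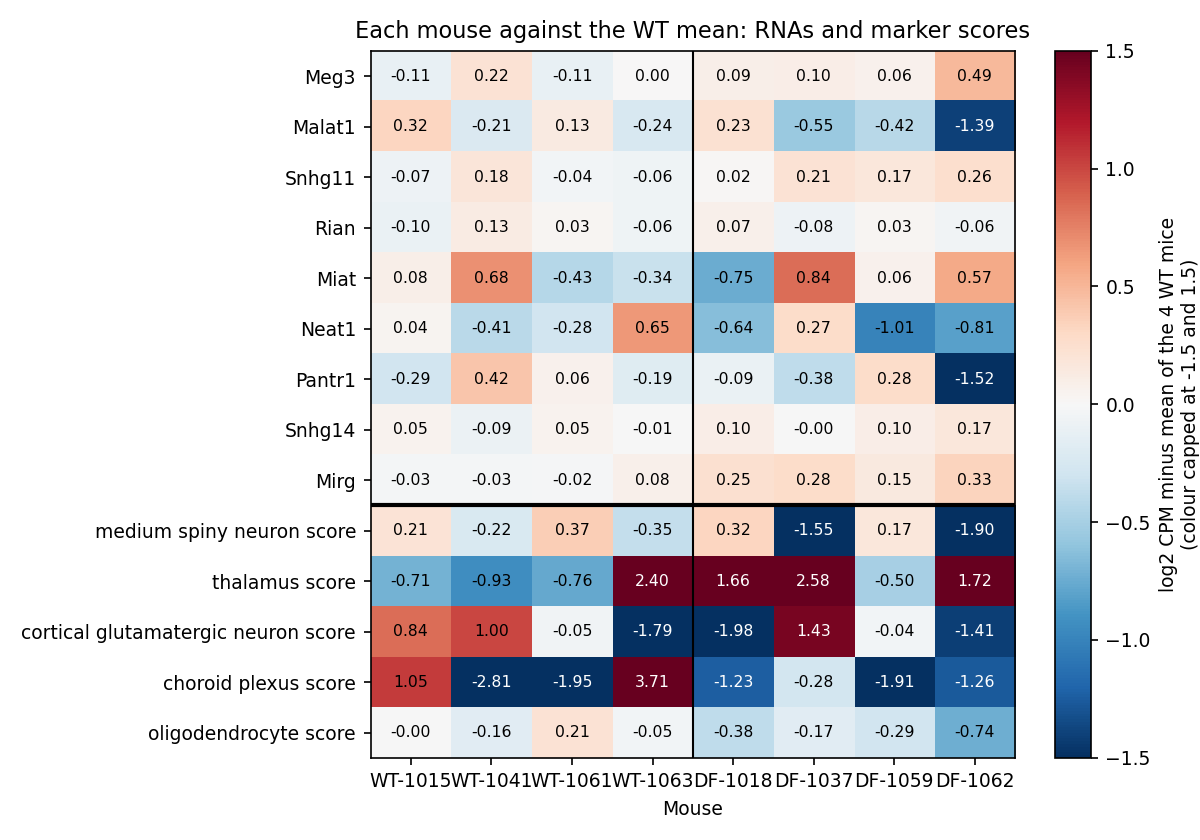
Difference in log2 CPM of each RNA and each marker score (rows) from the WT mean, for each mouse (columns, WT to the left of the line and 16p11.2+/- to the right), with colours capped at -1.5 and 1.5. Malat1, Miat, Neat1 and Pantr1 vary between mice of one genotype, as do the scores in the lower rows, whereas Rian, Snhg14 and Mirg vary little.

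In the comparison of the genotypes, 0 of 9 RNAs passed the threshold of 0.05 on the adjusted p-value of edgeR (Benjamini-Hochberg over all tested genes), where 0.109% of tested genes did. At an unadjusted p under 0.05 edgeR called 1 of 9, which was Mirg, against 4.32% of tested genes. DESeq2 and limma-voom also called 0 of 9 after adjustment and 1 of 9 before it. Log2 fold changes (16p11.2+/- against WT) were negative for 4 RNAs and positive for 5, with a median of 0.09, where 48.2% of all tested genes were positive and their median was -0.0093. The FPKM ranges of the genotypes did not overlap for 1 of 9 RNAs, again Mirg, against 2.83% of tested genes, of which 1.21% were higher and 1.62% lower in 16p11.2+/- mice.

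**Figure D3:**
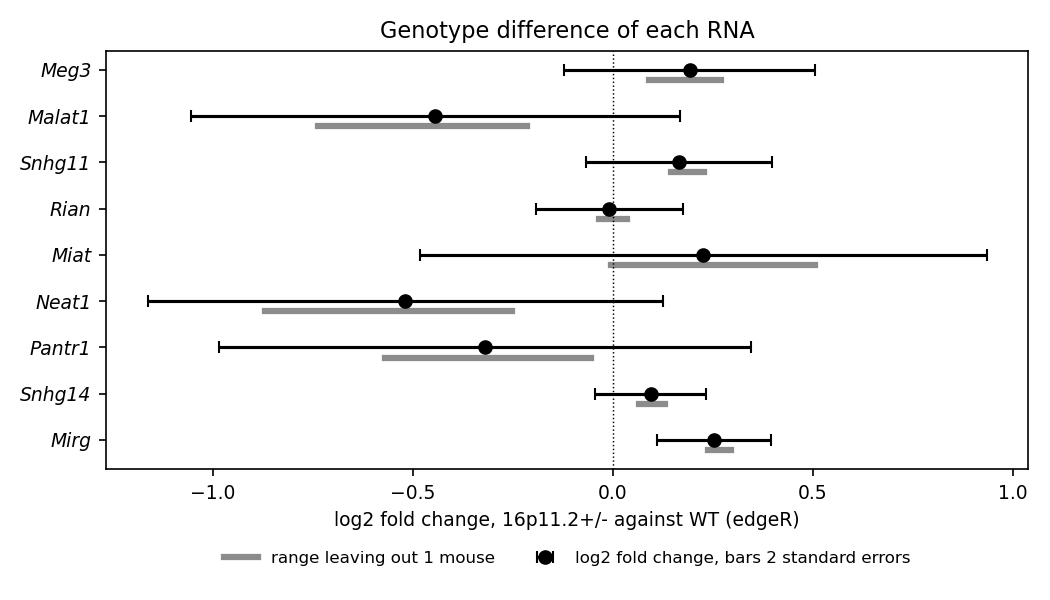
Log2 fold change of each RNA, 16p11.2+/- against WT (edgeR, horizontal axis), with bars of 2 standard errors, and grey bars for the range when each mouse was left out in turn. The bars of 8 RNAs cross 0, and those of Mirg run from 0.11 to 0.40.

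Of the Dlk1-Dio3 RNAs, Mirg, the microRNA host at the end of the row, was the one whose genotypes did not overlap. Its FPKM was 4.12, 4.23, 4.18 and 4.55 in the mice WT-1015, WT-1041, WT-1061 and WT-1063 and 4.96, 5.21, 4.77 and 5.74 in DF-1018, DF-1037, DF-1059 and DF-1062. Every 16p11.2+/- mouse was above every WT mouse. This gave a log2 fold change of 0.25 (SE 0.07), with an edgeR adjusted p = 0.859. It was between 0.24 and 0.30 when each mouse was left out in turn, and 0.20 (SE 0.11) with the oligodendrocyte score as a covariate, where its unadjusted p was no longer under 0.05. The adjusted p was between 0.517 and 1.0 over the alternatives, so the difference did not pass the test over all genes in any of them.

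Meg3, the first RNA of the row, had an FPKM of 374, 482, 376 and 415 in the WT mice, in the same order as before, and 428, 443, 430 and 614 in the 16p11.2+/- mice. DF-1062 was above the other 7 mice, which overlapped. Between the genotypes the log2 fold change was 0.19 (SE 0.16, edgeR adjusted p = 0.859). Without DF-1062 it was 0.09, and with the oligodendrocyte score as a covariate it turned to -0.12. Rian, the snoRNA host between the other two, had an FPKM of 48.7, 58.2, 53.3 and 51.1 in WT mice and 54.4, 50.3, 54.2 and 54.1 in 16p11.2+/- mice. The ranges overlapped and the log2 fold change was -0.0094 (SE 0.09), with a range of -0.19 to 0.17 at 2 standard errors.

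Since the 3 RNAs lie in a row on 1 strand, their counts were also set against each other within each mouse. Rian had 13.1, 12.2, 14.3 and 12.4 reads per 100 Meg3 reads in the WT mice and 12.8, 11.5, 12.7 and 8.88 in the 16p11.2+/- mice, so DF-1062 had the lowest ratio. The log2 ratio differed by -0.20 between the genotypes (exact permutation p = 0.2, adjusted over 4 ratios 0.4), and by -0.08 without DF-1062. Mirg had 3.38, 2.91, 3.13 and 3.56 reads per 100 Rian reads in WT mice and 3.65, 4.14, 3.52 and 4.25 in 16p11.2+/- mice. In 3 of 4 16p11.2+/- mice this ratio was above every WT mouse, with a difference of 0.26 on the log2 scale (exact permutation p = 0.0571, adjusted 0.229). The log2 ratio of Mirg to Meg3 differed by 0.07 (exact permutation p = 0.486, adjusted 0.648). The smallest p that 4 mice against 4 allow is 0.0286.

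The protein coding genes Dlk1, Rtl1 and Dio3 of the same domain are expressed from the paternal copy. The list of other genes in or beside the domain also held Begain, Wdr25 and the noncoding RNA Dio3os. Of these 6 genes 5 were tested, 0 passed the adjusted test, and 1 had an unadjusted edgeR p under 0.05. This was Dlk1, which encodes a transmembrane protein related to the Notch ligands. Its FPKM was 1.20, 4.60, 1.28 and 2.64 in the WT mice and 5.01, 1.98, 8.86 and 24.1 in the 16p11.2+/- mice, so the genotypes overlapped and DF-1062 was far above the others. For Dlk1 the log2 fold change was 1.99 (SE 0.72, edgeR adjusted p = 0.859), and 1.14 (SE 0.58) without DF-1062. Its unadjusted p was over 0.05 without WT-1015, WT-1061 or DF-1062. Dlk1, Rtl1, Dio3 and Begain all had their highest FPKM in DF-1062, and Wdr25 in DF-1018. How many of all tested genes were highest in DF-1062 was not counted. All 5 tested genes had positive log2 fold changes, with a median of 0.31, where 48.2% of all tested genes were positive. For Rtl1, derived from a retrotransposon, the value was 0.21 (SE 0.13), for the deiodinase gene Dio3 0.96 (SE 0.51) at no more than 29 reads per mouse, for Begain 0.16 (SE 0.14) and for Wdr25 0.31 (SE 0.17). When each mouse was left out in turn these stayed positive, and the lowest values were 0.12 for Rtl1 without WT-1063, 0.70 for Dio3 and 0.046 for Begain without DF-1062, and 0.19 for Wdr25 without DF-1018. Dio3os had too few reads to be tested, between 3 and 12 per mouse.

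**Figure D4:**
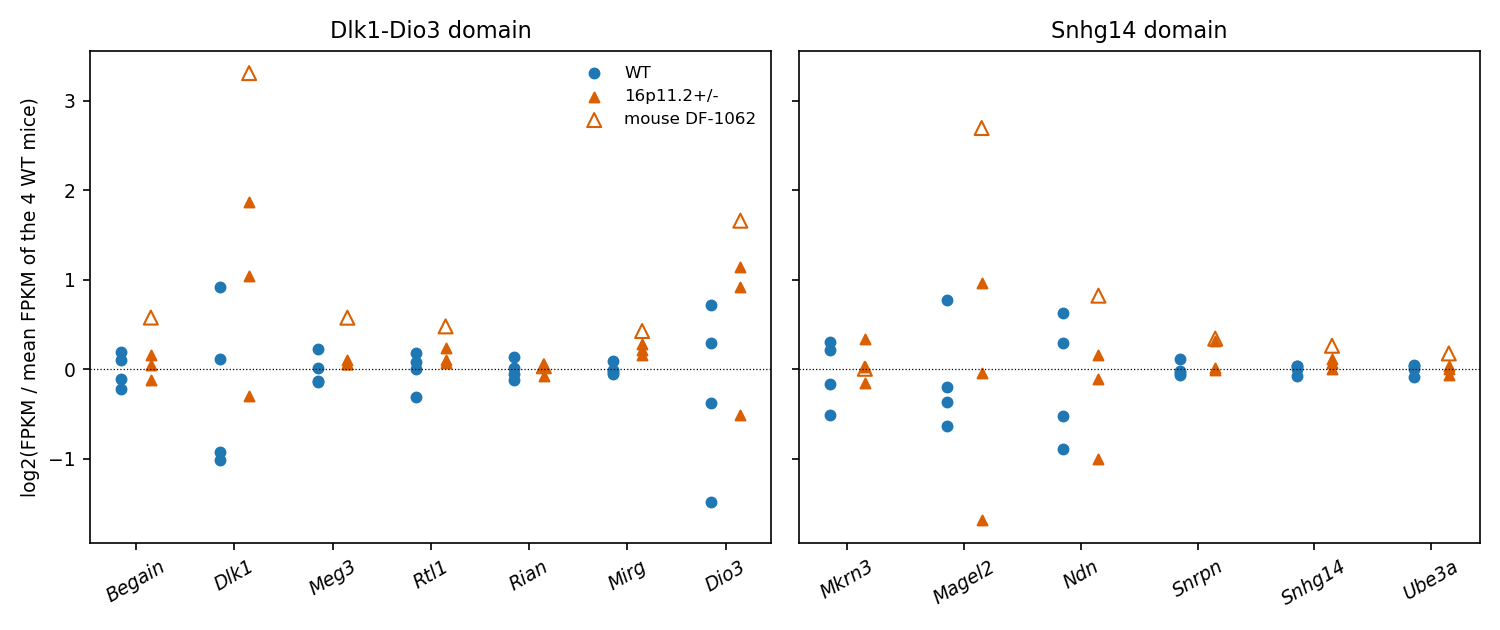
FPKM relative to the WT mean (log2 scale, vertical axis) in each mouse, with DF-1062 as an open triangle. Shown are the tested genes in or beside the Dlk1-Dio3 domain, without Wdr25, and those of the Snhg14 domain. All genes shown except Rian and Mkrn3 have their highest FPKM in DF-1062, where Dlk1 and Magel2 lie furthest above the WT mean. FPKM leaves out the TMM scaling factors of the edgeR fit (1.06 in DF-1062, 0.999 in DF-1037), and so runs high in DF-1062. Snrpn was close in these mice, at 168 and 165 FPKM. The share of all tested genes highest in DF-1062 was not counted. Mirg and Snhg14 lie in narrow bands.

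Snhg14, the snoRNA host of the other imprinted domain, had an FPKM of 5.03, 4.65, 5.04 and 4.93 in the WT mice and 5.17, 4.94, 5.31 and 5.90 in the 16p11.2+/- mice. In 3 of 4 16p11.2+/- mice it was above every WT mouse, and DF-1037 lay within their range. The log2 fold change was 0.09 (SE 0.07, edgeR adjusted p = 0.859), and it stayed between 0.06 and 0.13 when each mouse was left out. Ube3a, which Snhg14 runs antisense to, had an FPKM between 11.0 and 13.2 over the 8 mice, with a log2 fold change of 0.02 (SE 0.07). Of the exon bases of Snhg14 6.91% overlap genes on the opposite strand, and the strand setting of the counting is not given in the sources used here. Snrpn, the splicing protein gene of the domain, had a log2 fold change of 0.15 (SE 0.10), Ndn 0.08 (SE 0.40) and Mkrn3 0.05 (SE 0.25). With each mouse left out Snrpn lay between 0.10 and 0.21, whereas Ndn turned to -0.22 without DF-1062 and Mkrn3 to -0.081 without WT-1061. Magel2 had a log2 fold change of 1.23 (SE 0.76), with 7.93 FPKM in DF-1062 against 0.380 to 2.39 in the other mice, and 0.13 (SE 0.57) without DF-1062. Of the 5 tested genes of this domain 0 passed the test, also at an unadjusted edgeR p under 0.05. Snurf was at 0 in every mouse and Peg12 had at most 3 reads per mouse.

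Malat1, the nuclear speckle RNA, had an FPKM of 494, 350, 437 and 343 in the WT mice and 460, 275, 303 and 163 in the 16p11.2+/- mice. DF-1018 was within the WT range, and the other 3 16p11.2+/- mice were below every WT mouse. The 16p11.2+/- mean was 300.1 ± 122 (SD, n = 4), against the WT mean of 406 given before. This gave a log2 fold change of -0.44 (SE 0.31, edgeR adjusted p = 0.859), and between -0.74 without DF-1018 and -0.21 without DF-1062. The lowest levels of Malat1 were in DF-1062 and DF-1037, which also had the lowest scores of medium spiny neurons. DF-1059, with 303 FPKM of Malat1, had a score of 8.20, within the WT range. The part of tissue makeup in the Malat1 level was not tested. With the score of medium spiny neurons as a covariate the log2 fold change of Malat1 was -0.14 (SE 0.21). With the oligodendrocyte score it turned to 0.13 (SE 0.42).

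Neat1, the paraspeckle scaffold, had an FPKM of 10.5, 7.85, 8.40 and 16.3 in the WT mice and 6.46, 12.5, 5.17 and 6.27 in the 16p11.2+/- mice. DF-1037 was within the WT range and the other 3 16p11.2+/- mice were below every WT mouse. Its log2 fold change was -0.52 (SE 0.32, edgeR adjusted p = 0.859), and between -0.87 without DF-1037 and -0.25 without WT-1063. WT-1063 had the highest Neat1 level and also the highest choroid plexus score, and with that score as a covariate the value was -0.27 (SE 0.22). With the thalamus score as a covariate the log2 fold change of Neat1 was -0.94 (SE 0.21, edgeR adjusted p = 0.679), with the score of medium spiny neurons -0.77 (SE 0.33) and with the oligodendrocyte score -0.18 (SE 0.46).

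Neat1 and Malat1 are neighbours, and the ratio of their counts separated the mice in another way than genotype. Neat1 had 6.32, 6.68, 5.72 and 14.2 reads per 100 Malat1 reads in the WT mice and 4.18, 13.5, 5.07 and 11.5 in the 16p11.2+/- mice. WT-1063, DF-1037 and DF-1062 had ratios of at least 11.5, and the other 5 mice at most 6.68. These 3 mice also had the 3 lowest scores of medium spiny neurons and 3 of the 4 highest thalamus scores. However, the medium spiny neuron score of WT-1063 (7.67) was close to that of WT-1041 (7.80), whose ratio was 6.68. DF-1018, with a thalamus score of 5.89, had the lowest ratio, 4.18. The part of tissue makeup in the ratio was not tested. Between the genotypes the log2 ratio differed by -0.014 (exact permutation p = 1.0), well within the spread between mice.

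**Figure D5:**
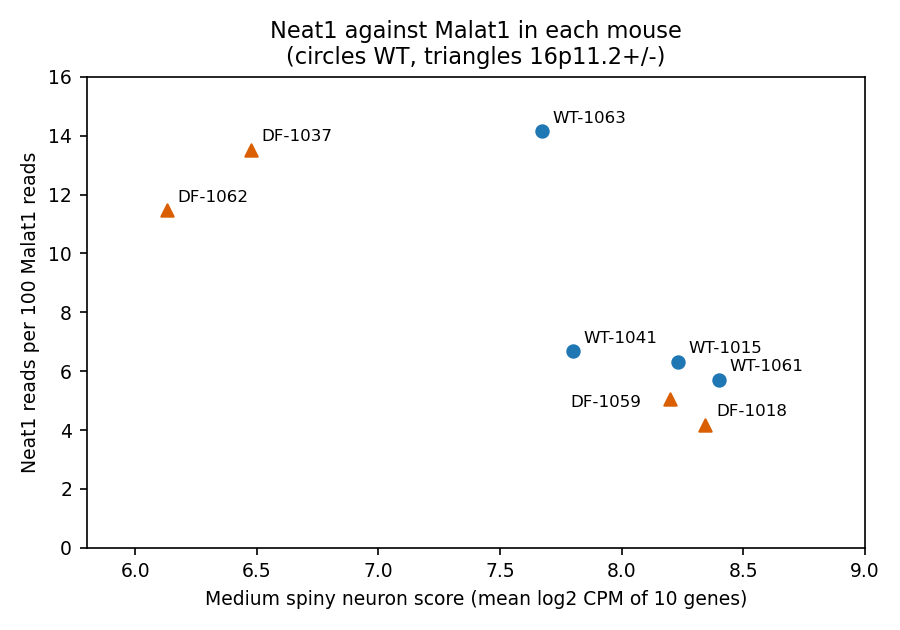
Neat1 reads per 100 Malat1 reads (vertical axis) against the medium spiny neuron score (mean log2 CPM of 10 genes, horizontal axis) in each mouse, circles for WT and triangles for 16p11.2+/-. WT-1063, DF-1037 and DF-1062 lie at ratios from 11.5 to 14.2 and scores of at most 7.67, and the other 5 mice at ratios of at most 6.68.

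The proteins of both nuclear bodies were listed for comparison. Of 10 paraspeckle genes, among them Sfpq, Nono and Pspc1, which bind Neat1, 10 were tested and 0 passed the edgeR test, also at an unadjusted p under 0.05. Their log2 fold changes were between -0.09 and 0.08, with a median of 0.01. Of 11 genes of nuclear speckle and splicing proteins, 0 passed by either measure, with values between -0.18 for Qk, an RNA binding protein, and 0.09 for Srrm2, a speckle scaffold. Of these 10 were negative and 1 was positive, with a median of -0.09. No gene on either list had a log2 fold change as far from 0 as Malat1 or Neat1. Frmd8, Ltbp3 and Slc25a45, which lie near Malat1 and Neat1, had log2 fold changes of -0.12 (SE 0.16), 0.20 (SE 0.28) and -0.25 (SE 0.20), and of -0.066, 0.032 and -0.11 without DF-1062.

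Miat, the RNA of neurons that binds splicing factors, had an FPKM of 25.2, 39.0, 17.7 and 19.3 in the WT mice and 14.1, 43.3, 25.3 and 38.1 in the 16p11.2+/- mice. Both genotypes held low and high mice and the ranges overlapped, so that the log2 fold change was 0.23 (SE 0.35, edgeR adjusted p = 0.903). It was 0.51 without WT-1041 and -0.0046 without DF-1037, the mice with the highest Miat level of each genotype. These mice also had the highest cortical glutamatergic neuron scores, 5.66 and 6.09. DF-1062, with 38.1 FPKM of Miat, had a score of 3.24, and WT-1015, with 25.2 FPKM, had 5.50. The part of tissue makeup in the Miat level was not tested. With the cortical glutamatergic neuron score as a covariate the log2 fold change of Miat was 0.36 (SE 0.28). With the score of medium spiny neurons as a covariate it was -0.23 (SE 0.29), and with the oligodendrocyte score -0.0058 (SE 0.49). Of the exon bases of Miat 24.3% overlap genes on the opposite strand. Beside Miat, the crystallin gene Crybb1 had a log2 fold change of 0.26 (SE 0.19), between 0.14 without DF-1059 and 0.37 without DF-1062, and Cryba4 had at most 8 reads per mouse and was not tested.

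Snhg11, the third RNA by level, had an FPKM of 348, 423, 356 and 358 in the WT mice and 368, 432, 420 and 472 in the 16p11.2+/- mice. WT-1041 stood above the other WT mice and within the 16p11.2+/- range. Snhg11 had a log2 fold change of 0.16 (SE 0.12, edgeR adjusted p = 0.859), and 0.14 to 0.23 when each mouse was left out. It was 0.11 (SE 0.10) with the score of medium spiny neurons and 0.08 (SE 0.16) with the oligodendrocyte score as a covariate. Its neighbour Ralgapb had a log2 fold change of 0.08 (SE 0.09), between 0.037 without DF-1018 and 0.12 without DF-1037.

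Pantr1 had an FPKM of 6.29, 10.5, 8.03 and 6.90 in the WT mice and 7.14, 6.02, 9.49 and 2.86 in the 16p11.2+/- mice, at 211 to 716 reads per mouse. DF-1062 was lower than any other mouse, and DF-1037 was also below every WT mouse. DF-1018 and DF-1059 lay within the WT range. Its log2 fold change was -0.32 (SE 0.33, edgeR adjusted p = 0.870). It was -0.05 without DF-1062 and -0.57 without DF-1059, and it turned to 0.16 with the oligodendrocyte score as a covariate. Pou3f3, the neighbouring gene of a transcription factor of the nervous system, was also lowest in DF-1062, at 11.0 FPKM against 13.4 to 18.4 in the other mice, with a log2 fold change of -0.23 (SE 0.16) and of -0.096 without DF-1062. Pantr2, another noncoding RNA of this locus, had an FPKM of 3.16, 3.79, 3.06 and 3.20 in the WT mice and 2.56, 2.33, 2.64 and 2.02 in the 16p11.2+/- mice. Every 16p11.2+/- mouse was below every WT mouse for Pantr2, at 42 to 73 reads per mouse, with a log2 fold change of -0.48 (SE 0.17, edgeR adjusted p = 0.859). Its unadjusted p was under 0.05, but not without WT-1041 or DF-1062, and the value without DF-1062 was -0.38 (SE 0.16).

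Other long noncoding RNAs gave a like picture of differences that did not pass the test. Of 19 other snoRNA host genes 15 were tested by edgeR, 0 passed, and 1 had an unadjusted p under 0.05. This was Snhg8, with 8.68, 8.42, 7.87 and 9.06 FPKM in the WT mice and 5.69, 7.03, 6.71 and 5.89 in the 16p11.2+/- mice, a log2 fold change of -0.45 (SE 0.13, edgeR adjusted p = 0.859), and no overlap between genotypes. Its unadjusted p stayed under 0.05 when each mouse was left out. Snhg5 also did not overlap, with 4.94 to 5.96 FPKM in WT mice and 4.55 to 4.91 in 16p11.2+/- mice (log2 fold change -0.21, SE 0.12). Gas5, the highest of these hosts at 13.3 FPKM in WT mice, had a log2 fold change of 0.23 (SE 0.30), and of 0.015 without WT-1041. For Epb41l4aos it was -0.36 (SE 0.34), and -0.095 without DF-1018. The 15 hosts had 12 negative values and a median of -0.10, where the median of all tested genes was -0.0093.

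Of 20 other long noncoding RNAs known in the brain, 16 were tested, 0 passed, and 1 had an unadjusted edgeR p under 0.05. This was Peg13, an imprinted RNA, with 57.9, 54.4, 56.8 and 63.4 FPKM in the WT mice and 65.0, 66.8, 63.2 and 81.7 in the 16p11.2+/- mice. The ranges overlapped by DF-1059 and WT-1063, and the log2 fold change was 0.23 (SE 0.09, edgeR adjusted p = 0.859). Its unadjusted p was over 0.05 without WT-1015, WT-1041, WT-1061 or DF-1062. 6330403K07Rik, the highest of the list at 79.1 FPKM in WT mice, is not among the rows typed as long noncoding RNA. It had a log2 fold change of 0.38 (SE 0.27), and 1700020I14Rik had -0.03 (SE 0.15). Without DF-1062 these were 0.11 and 0.11. The median over the 16 was -0.09, with 11 negative and 5 positive values.

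The tested genes closest in pattern to the 3 RNAs of highest level were found by the root mean square difference of log2 CPM over the 8 mice, after centring each gene. For Meg3 these were Cc2d1a (0.059), Tmem150c (0.061) and Wrnip1 (0.061), against the own spread of Meg3 of 0.18. Rian and Mirg, its neighbours in the domain, were in the places 3006 and 795 from Meg3, and Snhg11 was the closest of the other 8 RNAs, in place 194. For Malat1 the closest were Gm37472 (0.092), Rgs20 (0.11) and Gm14388 (0.12), against its own spread of 0.52. For Snhg11 they were Chd3 (0.050), Nckipsd (0.051) and Ulk1 (0.052), against its own spread of 0.13. With 8 mice, and the same 8 libraries behind every gene, such closeness is a description.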

How the data were processed

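RNA libraries of the striatum from 4 WT and 4 16p11.2+/- mice were analysed. The authors trimmed the reads, mapped them with Hisat2 2.1.0, and counted them with Htseq-count. The deposited values are raw counts per gene and mouse. The authors also deposited FPKM, which equals the count divided by a gene length and the library total within 0.1% for all 16153 genes examined. The implied length equals that of GENCODE M21 exons for 97.4% of the genes compared. The build and strand setting are not given in the sources used here, and per the labels the submitters' processing notes name Bowtie 0.12.2, mm8 and mm9. A deposited table of the authors' comparison (mean counts, log2 fold changes, p-values) and a summary of FPKM in bins were not used. Whether poly(A) RNA was selected is not given in the sources used here either. No sample column was left unmapped.

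The count test was the quasi-likelihood test of edgeR 4.0.16 (R 4.3.3, filterByExpr, TMM factors, Benjamini-Hochberg adjustment over 18294 genes, threshold 0.05). Standard errors were derived from the F statistic. For shares and ratios, exact permutation tests (two-sided, scipy 1.17.1) were used. Marker scores are the mean log2 CPM of a gene list. Replicates are separate mice, whose counts differed by at least 8.88 times the sampling noise. Alternatives were DESeq2 1.42.0, limma 3.58.1 (voom, and trend on log2 FPKM with pseudocounts of 1 and 0.1), other scaling and filters, each mouse left out, and marker scores as covariates. Of these covariates, choroid plexus, cortical neurons and medium spiny neurons were added after seeing the data. Dlx6os1, listed in 2 rows, was taken by the row with more counts. The code was tested on simulated data.

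The 9 RNAs and the lists were chosen with earlier results of these data known. The genes named were the 9 RNAs, the other genes of their loci, listed genes that passed the test, the 3 nearest in pattern to each of the 3 highest RNAs, and the 3 highest of each list of other noncoding RNAs. Of the genes of these loci, 1 is not reported here. Snhg5, Snhg8, Qk, Srrm2 and the paraspeckle genes were named with their values already seen.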

Additional observations from a re-analysis of the deposited data

Results flagged for a closer look

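Of 28 groups of 4 mice examined, 5 held a mouse whose gap to the nearest other, divided by the range of the group, was above Dixon's 95% critical value. Chance gives this in about 1 in 20 groups. The gap was 0.921 of the range for Meg3 in DF-1062, with 614 FPKM against 428 to 443 in the other 16p11.2+/- mice. For Rian it was 0.933 in DF-1037, with 50.3 FPKM against 54.1 to 54.4. FPKM leaves out the TMM scaling factors. In log2 CPM, which includes them, Rian was at 9.85 in DF-1037 and close to it in DF-1062, at 9.87. DF-1037 thus stood apart for Rian in FPKM but not in log2 CPM. WT-1041 accounted for the other 3 groups. Its gap was 0.869 for Snhg11, with 423 FPKM against 348 to 358 in the other WT mice. For the share of reads on the 9 RNAs it was 0.848, with 1.65% against 1.44% to 1.47%. For the log2 ratio of Mirg to Meg3 it was 0.942, with -8.14 against -7.82 to -7.80.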

How the results depend on the processing

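The count of RNAs passing the adjusted test was 0 of 9 in each of the 21 alternatives. Over all genes edgeR called 20, against 31 by DESeq2, 10 with the thalamus score and 1 with the oligodendrocyte score as a covariate, and 8 to 18 when each mouse was left out. Mirg, Neat1, Snhg11 and Snhg14 kept the direction of their log2 fold change in all 21. The oligodendrocyte score turned those of Meg3 (-0.12), Malat1 (0.13), Miat (-0.0058) and Pantr1 (0.16), in a fit where score and genotype can be told apart only in part. The score of medium spiny neurons also turned that of Miat (-0.23). Leaving out each mouse gave -0.0046 to 0.51 for Miat and -0.035 to 0.035 for Rian. Rian, close to 0, was also positive with library totals (0.011), limma-trend with either pseudocount (0.013), the thalamus score (0.029) and the score of medium spiny neurons (0.026). Without Meg3 the difference in the share of reads was -0.030 percentage points. With each mouse left out the log2 ratio differed by -0.016 to 0.14 for Mirg to Meg3 and by -0.29 to 0.28 for Neat1 to Malat1. The causes were not tested. No paired analysis was possible because the genotypes share no replicate numbers. No batch is given in the labels. With 4 mice per genotype, differences of the size seen for Malat1 and Neat1 lie within the spread between mice, and Pantr2 rests on 42 to 73 reads per mouse.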

Other observations

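Among rows typed as long noncoding RNA, those that stood between the 9 in level in WT striatum were picked after their values were seen. 2900097C17Rik had 353 FPKM, next after Malat1, and Bc1, a short cytoplasmic RNA of dendrites, had 87.1 FPKM. Peg13 followed at 58.1 FPKM, above Rian.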
